A study of Mus musculus with 56 samples.

Results

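The genes described here are 8 genes of peroxisomal fatty acid oxidation, namely Acox3, Ehhadh, Hsd17b4, Decr2, Ech1, Crot, Cat and Pex11a. They were chosen by symbol as genes of the pathway, with earlier results of these data known, and all 8 were found among the 22864 genes listed for mouse heart. Hearts came from adult female C57BL/6J mice, an inbred strain, aged 9 weeks and kept under alternating light and darkness. For 7 days food was offered only while the lights were on (daytime-restricted feeding, DRF) or only while they were off (nighttime-restricted feeding, NRF), the latter as the reference because mice eat by night. PolyA RNA was sequenced every 4 h from ZT0 to ZT24, where ZT (zeitgeber time) counts the hours since the lights came on. These 7 times under 2 regimens make 14 groups of 4 replicate hearts, or 56 libraries. DRF mice were thus fed from ZT0 to ZT12 and fasted from ZT12 to ZT24, and NRF mice the other way round.

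Peroxisomes shorten fatty acids that mitochondria handle poorly, such as very long, branched and dicarboxylic chains, and pass the shortened products on. The first step, run by acyl-CoA oxidases, hands its electrons to oxygen and so forms hydrogen peroxide, which catalase removes. Many genes of the pathway are known targets of PPARα, a nuclear receptor that binds fatty acids, and in liver they rise with fasting, whereas the heart relies mostly on mitochondria for the bulk of its fat oxidation.

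The 8 genes are not neighbours on a single locus. On build GRCm38, Acox3 (ENSMUSG00000029098) lies at chr5:35583040-35615352 on the plus strand and Crot (ENSMUSG00000003623) at chr5:8966033-8997324 on the minus strand. Ech1 (ENSMUSG00000053898) lies at chr7:28825217-28832247, plus strand, and Pex11a (ENSMUSG00000030545) at chr7:79735957-79743131, minus strand. Cat (ENSMUSG00000027187) is at chr2:103453849-103485160, minus strand, Ehhadh (ENSMUSG00000022853) at chr16:21761287-21787807, minus strand, and Decr2 (ENSMUSG00000036775) at chr17:26081208-26090337, minus strand. Hsd17b4 (ENSMUSG00000024507) lies on another chromosome, on the plus strand. The library kit did not mark strand. Exons of Acox3 share 700 bases with the antisense gene 4931431C16Rik, which was listed at a mean of 0.0428 TPM, and exons of Crot share 166 bases with the antisense gene Gm37153 and 39 bases with Gm27941 on the same strand, neither of which was among the listed genes.

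Promoters were read for 7 of the 8 genes from RefSeq (GRCm38.p6, 250 bases before to 50 bases after the annotated start). The stretches before the start are shown for Ehhadh, Acox3 and Cat, because these were the genes with the largest rhythm component that followed feeding. Capitals mark the letters AGGTCA (the letters nuclear receptors bind), GGGCGG (a GC box) and CCAAT, or their reverse complements CCGCCC and ATTGG. The sequences run 5′ to 3′ along each gene and lie at chr16:21787835-21788084 (minus strand), chr5:35582784-35583033 (plus strand, within an exon of an antisense gene) and chr2:103485154-103485403 (minus strand).
Ehhadh: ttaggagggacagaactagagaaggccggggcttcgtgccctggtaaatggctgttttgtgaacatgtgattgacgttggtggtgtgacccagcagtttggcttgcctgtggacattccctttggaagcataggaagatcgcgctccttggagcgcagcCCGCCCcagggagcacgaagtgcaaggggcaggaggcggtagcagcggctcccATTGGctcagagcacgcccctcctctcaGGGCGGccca
Acox3: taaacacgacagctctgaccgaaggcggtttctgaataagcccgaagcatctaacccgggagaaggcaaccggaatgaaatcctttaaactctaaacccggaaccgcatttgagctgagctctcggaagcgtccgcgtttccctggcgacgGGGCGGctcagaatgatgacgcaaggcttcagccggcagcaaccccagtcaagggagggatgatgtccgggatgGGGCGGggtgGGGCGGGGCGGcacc
Cat: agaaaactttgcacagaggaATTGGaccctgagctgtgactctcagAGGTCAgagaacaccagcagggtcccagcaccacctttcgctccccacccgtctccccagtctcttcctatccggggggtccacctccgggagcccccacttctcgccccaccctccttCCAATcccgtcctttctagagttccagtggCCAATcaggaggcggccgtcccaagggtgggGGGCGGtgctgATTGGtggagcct
These 3 stretches held 60.4%, 60% and 62% G and C, against a median of 52.4% over all 32817 promoters. The promoters of all 7 genes held a GC box on either strand, which 35.6% of all promoters and 46.2% of the promoters of protein-coding genes did. CCAAT was found in Cat, Crot and Ehhadh, 3 of 7, against 37.4% of all promoters. The perfect direct repeat of AGGTCA with a single base between (DR1), the ideal site of PPARα, was in 0 of 7 on either strand (0.0396% of all promoters), a DR1 of the looser AGGNCA also in 0 of 7 (0.381%), and a single AGGTCA in Cat alone (16.3%), at position -204 from its start. The E-box CACGTG of the clock activators was in 0 of 7 (7.15%), and the D-box TTANGTAA in 0 of 7 (2.32%). A match is a run of letters and not a bound site, and a lack of matches covers only this window.

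Values are TPM, the reads of a gene divided by its exon length, with the sum over genes made equal between libraries. They were computed anew after the deposited values had been turned back into whole reads, so that levels can be compared between genes per base of exon. Recovered reads ranged from 29.5 to 53.4 M (mega) per library, with a median of 37.7 M. The median library held 485.5 reads of Ehhadh and 614 of Decr2, the lowest among the 8 genes, and 44553 of Ech1, the highest. Counting error in a heart had a median over groups of 4.62% for Ehhadh and 3.99% for Decr2, and the SD between hearts of a group one of 16% and 7.58%, and in 13 of 14 groups of each gene the SD was the larger. Fits were made with limma on log2(TPM + 1) over the 13869 genes that averaged 1 TPM or more, and an adjusted p is Benjamini-Hochberg adjusted over all of these. More genes were called lower than higher under DRF, with 90.0% of the calls for the mean level in that direction. This share was 55.4% after median-of-ratios rescaling, so small downward calls under DRF depend on the scaling. Summed cardiomyocyte markers were between 22826 and 36442 TPM in every library. Atrial markers had a median sum of 1785 TPM under DRF (range 94.2 to 5431) and 604 TPM under NRF (128 to 4264), white adipocyte markers of 52.1 TPM (5.53 to 212) and 58.5 TPM (14 to 194), and hepatocyte markers of 3.37 TPM (0.405 to 68.7) and 1.04 TPM (0.255 to 15.2), with Alb, Apoa1, Lep, Sln or Ucp1 listed at 0 in some libraries. Erythroid markers had median sums of 6510 TPM (1608 to 62602) under DRF and 6065 TPM (1378 to 36614) under NRF, and mitochondrially encoded reads were a median of 21.9% of reads under DRF and 20.2% under NRF. The part of atrial, hepatocyte, erythroid and mitochondrially encoded content in the results was not tested.

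A pair of libraries went against their labels. Over the 1092 non-member genes whose rhythm differed most clearly between regimens, the library labelled DRF ZT4 replicate 1 correlated at r = 0.82 with NRF ZT8 and at r = -0.21 with the other libraries of its own group. The library labelled NRF ZT8 replicate 1 correlated at r = 0.72 with DRF ZT4 and at r = -0.15 with its own group. NRF ZT4 replicate 3 also lay slightly nearer to another group (r = 0.66 with DRF ZT24) than to its own (r = 0.63). Over 2380 genes with a shared rhythm the same pair again lay nearest to the other's group, and DRF ZT4 replicates 2 and 4 were by a small margin nearer to an NRF group (r = 0.40 and 0.37) than to their own (r = 0.37 and 0.35). All were kept as labelled, and the members' counts, peak shifts and fasting differences are also given without the pair. Nothing in the labels says which animals the replicates came from, so p-values measure the spread between these samples.

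Levels of the 8 genes differed widely. Ech1, an isomerase of the auxiliary steps that also acts in mitochondria, averaged 1152 ± 103 TPM (SD, n = 56 libraries) and was higher than 99.7% of the listed genes. Cat, which encodes catalase, averaged 180 ± 24.2 TPM. Hsd17b4, the D-bifunctional protein that carries out the middle steps of the cycle, averaged 61.9 ± 5.62 TPM. These 3 did not overlap with each other or with any other member in any library. Decr2, a reductase for unsaturated chains, averaged 16 ± 2.17 TPM, Crot, which moves medium chains onto carnitine for export, 14.8 ± 1.2 TPM, and Pex11a, a membrane protein that promotes division of peroxisomes, 13.9 ± 1.69 TPM. Neighbours in this order from Decr2 to Pex11a differed by less than their spread. Ehhadh, the L-bifunctional protein and the counterpart of Hsd17b4, averaged 10.8 ± 4.86 TPM, and Acox3, an oxidase of branched chains, 5.21 ± 0.682 TPM. Ehhadh varied most for its level, from 5.58 to 26.6 TPM, while Crot stayed between 11.9 and 17.7 TPM.

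**Figure D1:**
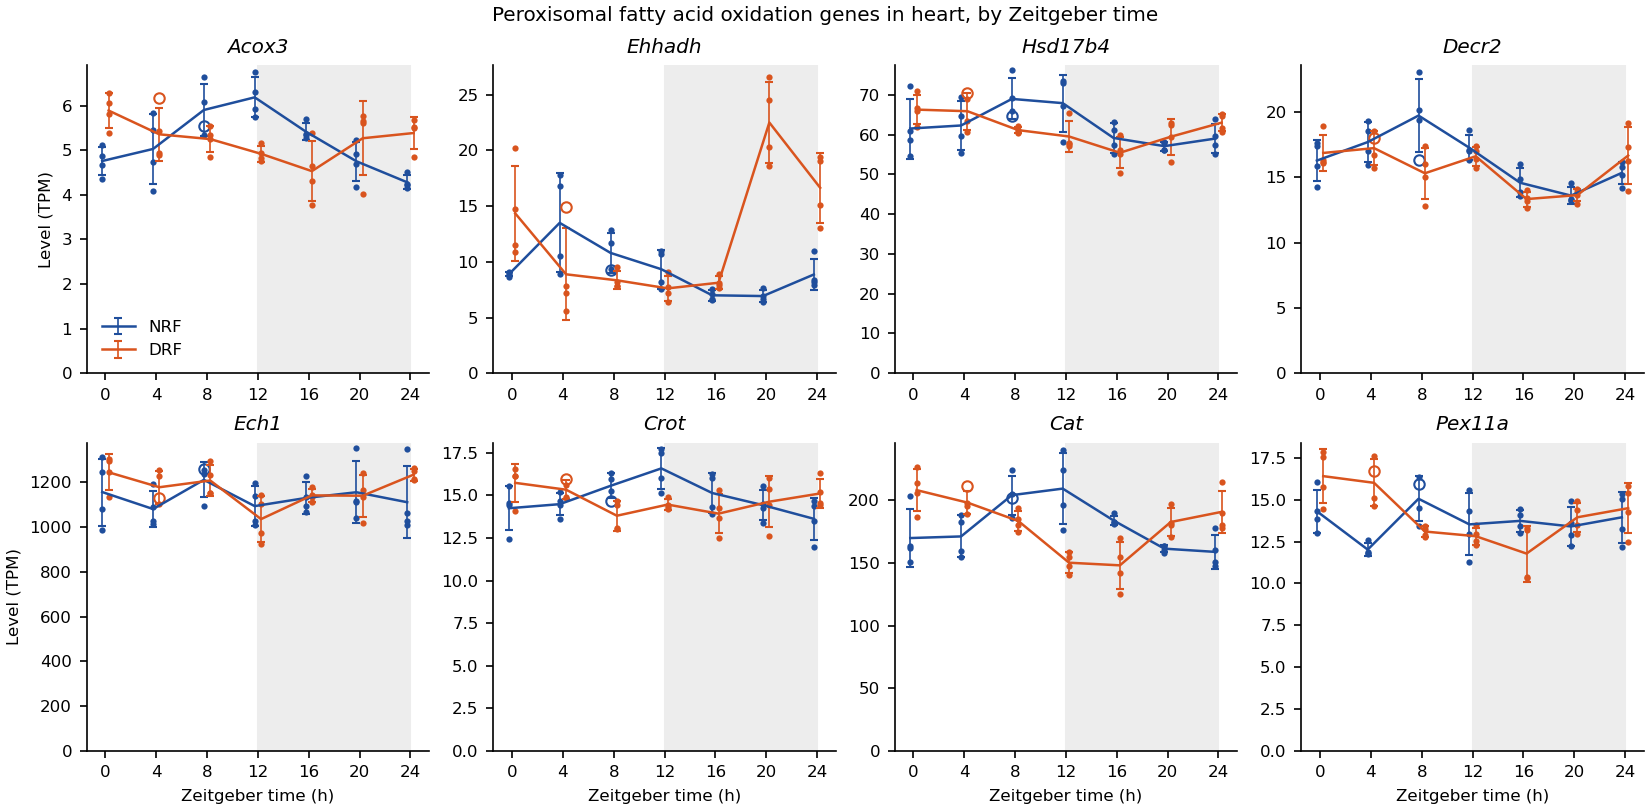
Level in TPM (vertical axes, from 0) against zeitgeber time in hours for each of the 8 genes, with points for single hearts, lines for group means and bars for SD (n = 4), NRF in blue and DRF in orange. Shading marks the dark phase and open circles the 2 libraries that went against their labels. Ehhadh reached 18.6 to 26.6 TPM at DRF ZT20, above all NRF hearts, whereas Ech1 stayed between 926 and 1355 TPM.

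Under each regimen most of the genes cycled with a 24 h period, and 5 of 8 did so under both (17.7% of all genes tested). The fitted peaks of these 5 moved by 2.55 h (Decr2) to 8.86 h (Acox3) when feeding was inverted. Under NRF, 6 of 8 were rhythmic, all except Ech1 and Pex11a (37.3% of all genes tested were called). Under DRF, 7 of 8 were rhythmic, all except Crot (adjusted p = 0.0867), against 32.4% of all genes. Without the 2 libraries that went against their labels, 6 of 8 were rhythmic in each regimen. Acox3 (0.0357) and Ech1 (0.0319) were the weakest DRF calls by limma's adjusted p. The call for Acox3 was lost when any 1 of 8 DRF libraries was left out (up to 0.0867, without DRF ZT16 replicate 4), and that for Ech1 without DRF ZT0 replicate 2, DRF ZT12 replicate 1 or DRF ZT12 replicate 2 (up to 0.0792). Crot was called when DRF ZT20 replicate 2 was left out (0.0480).

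Rhythm was split into a component that follows feeding, which turns over when feeding is inverted, and a component that stays with clock time. The first is the same test as a difference in rhythm between regimens. A rhythm that only gains or loses amplitude also gives a feeding-following component, so a call alone does not show a move with feeding. Pex11a, for example, had an amplitude of 0.017 under NRF and 0.19 under DRF, and components of 0.10 and 0.086. The feeding-following component was called for 7 of 8 genes, all except Ech1 (adjusted p = 0.213), against 27.7% of all genes. Because the genes were chosen with earlier results known, this count is a description. The clock-time component was called for 6 of 8, all except Ech1 and Crot, against 41.5%, and 6 had both, against 14.5%. Without the 2 libraries that went against their labels, 7 and 6 were called. The median log2 amplitude over the 8 genes was 0.094 for the feeding-following and 0.088 for the clock-time component, against 0.063 and 0.076 over all genes tested. The feeding-following component was the larger in 6 of the 8, and in 40.9% of all genes. The exceptions were Decr2 and Hsd17b4.

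**Figure D2:**
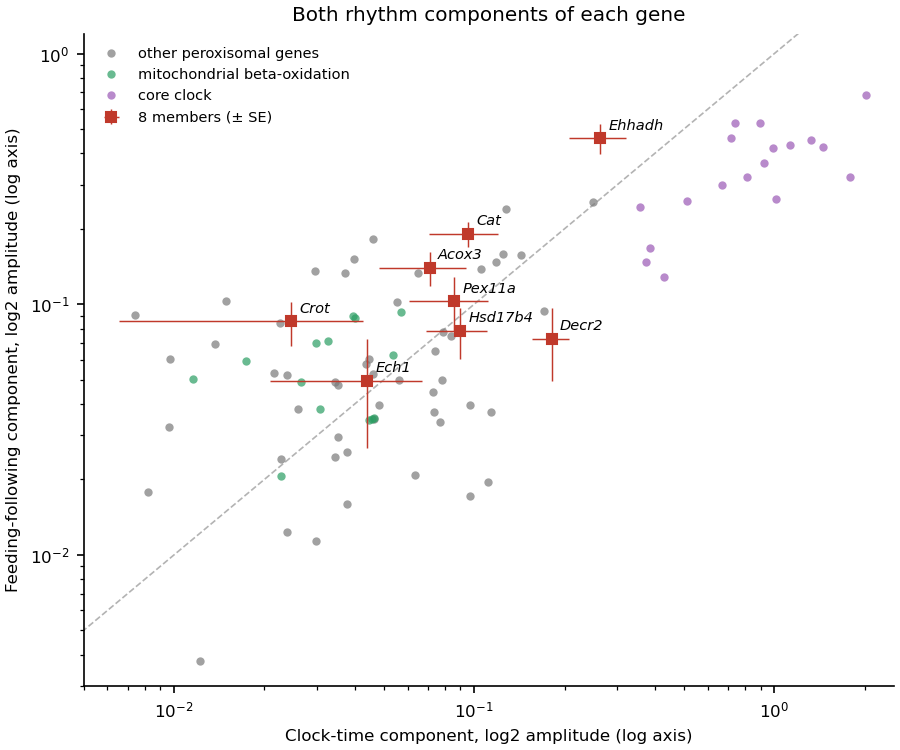
Log2 amplitude of the feeding-following component (vertical) against that of the clock-time component (horizontal), both on log axes, with red squares for the 8 genes (± SE), grey for other peroxisomal genes, green for mitochondrial beta-oxidation enzymes and purple for core clock genes; on the dashed line both components are equal. Ehhadh stands highest of the 8 at 0.46, Decr2 lies below the line, and all 18 clock genes lie below it.

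Ehhadh carried the largest change. Under NRF its levels were lowest in the night, at 7.61, 6.55, 7.16 and 6.69 TPM at ZT16 and 6.40, 6.97, 6.71 and 7.64 TPM at ZT20, during feeding. During the fast they were 10.5, 8.91, 17.8 and 16.8 TPM at ZT4 and 9.29, 11.7, 9.37 and 12.9 TPM at ZT8. All 8 hearts of the fasted times were above all 8 of the fed times, and the ZT4 hearts fell into a lower and a higher pair.

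Under DRF, Ehhadh stayed low through the first hours of the fast, at 8.06, 8.92, 7.62 and 7.91 TPM at ZT16. It then stood at 26.6, 18.6, 24.5 and 20.3 TPM at ZT20, at 19.4, 19.1, 13.0 and 15.1 TPM at ZT24 and at 20.3, 10.9, 11.5 and 14.7 TPM at ZT0. By ZT8 it was back at 7.87, 9.50, 7.80 and 8.21 TPM. The lowest ZT20 heart was above each of the 28 NRF hearts, and the ZT16 and ZT8 groups overlapped. At ZT4 the hearts were at 14.9, 7.18, 7.85 and 5.58 TPM, the first being the library that went against its label.

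At equal clock time Ehhadh differed by 1.56 ± 0.18 (log2, SE; adjusted p = 1.39e-07) at ZT20, which on this scale is 2.94-fold higher under DRF. It was also higher at ZT0 (0.60 ± 0.18, adjusted p = 0.0255) and, in separate hearts at the same phase, at ZT24 (0.83 ± 0.18, adjusted p = 0.00259). At ZT4 the difference was -0.58 ± 0.18 (adjusted p = 0.148), and without the 2 libraries it was -0.84 (adjusted p = 0.00207). The fitted peak stood at ZT5.91 ± 0.53 h under NRF and ZT21.6 ± 0.62 h under DRF, an absolute shift of 8.29 ± 0.82 h (95% interval 6.69 to 9.89 h). Without the 2 libraries the shift was 8.67 h.

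Ehhadh was also the only member with a different mean level over the day, higher under DRF by 0.29 ± 0.07 (log2, adjusted p = 0.00186), where 29.0% of all genes were called (2.88% higher and 26.1% lower). This was 1 of 8 members. It rested on the end of the night, since without ZT20 it was 0.075 (adjusted p = 0.526) and without ZT24 it was 0.20 (adjusted p = 0.0541). Without the 2 libraries it was 0.24 (adjusted p = 0.00288).

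Cat, Acox3 and Crot had fitted NRF peaks close together, at ZT10.7, ZT11.1 and ZT11.5. In NRF hearts Cat stood at 240, 197, 224 and 177 TPM at ZT12, when feeding began, and at 160, 164, 164 and 158 TPM at ZT20. In DRF hearts it stood at 147, 159, 140 and 154 TPM at ZT12 and at 214, 206, 187 and 226 TPM at ZT0, when feeding began. The DRF hearts at ZT12 were all below the NRF hearts at ZT12, while at ZT0 a single NRF heart at 204 TPM reached into the DRF range.

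Cat differed between regimens at 4 of the 7 ZTs. It was lower under DRF at ZT12 (-0.47 ± 0.09, adjusted p = 0.00067) and ZT16 (-0.32 ± 0.09, adjusted p = 0.0184) and higher at ZT0 (0.30 ± 0.09, adjusted p = 0.0165) and ZT24 (0.26 ± 0.09, adjusted p = 0.0432), all in log2 with SE. Its mean over the day differed by 0.0018 ± 0.032 when all 7 ZTs are averaged, which counts the phase of ZT0 and ZT24, where it was higher under DRF, 2 times. Over the 76 alternatives it ranged from -0.048 (without ZT0) to 0.080 (without ZT12), with an adjusted p of 0.0636 or more. Its fitted peak moved by 8.52 ± 0.89 h, from ZT10.7 to ZT2.15 (95% interval 6.77 to 10.3 h), and by 8.58 h without the 2 libraries.

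Acox3 followed the same course at a far lower level. At NRF ZT12 its hearts stood at 6.76, 5.75, 6.31 and 5.92 TPM, and at NRF ZT24 at 4.22, 4.50, 4.24 and 4.16 TPM. Under DRF they stood at 5.16, 4.82, 4.76 and 4.95 TPM at ZT12 and 5.52, 5.67, 4.86 and 5.50 TPM at ZT24. The regimens did not overlap at either time, and their order was reversed between them. The differences were -0.28 ± 0.08 at ZT12 (adjusted p = 0.0324), 0.27 ± 0.08 at ZT24 (adjusted p = 0.0328) and 0.26 ± 0.08 at ZT0 (adjusted p = 0.0363). The peak moved by 8.86 ± 1.38 h, from ZT11.1 to ZT2.20 (95% interval 6.15 to 11.6 h), and by 9.02 h without the 2 libraries. Its clock-time amplitude of 0.071 ± 0.023 was called (adjusted p = 0.03), a call that was lost without DRF ZT8 replicate 1, DRF ZT20 replicate 2, NRF ZT8 replicate 4 or NRF ZT20 replicate 4 (up to 0.0637).

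Crot had the smallest rhythm of these 3. Its NRF hearts were at 17.7, 17.5, 16 and 15.2 TPM at ZT12 and 13.5, 14.4, 14.7 and 11.9 TPM at ZT24, and its DRF hearts at 14.3, 14.2, 14.4 and 14.9 TPM and 16.3, 14.5, 14.4 and 15.2 TPM at the same times. It differed between regimens past the threshold at 0 of the 7 ZTs by limma. The nearest was ZT12, at -0.18 ± 0.07 (adjusted p = 0.0878), and its unadjusted p was under 0.05 at 3 of them. Its feeding-following amplitude of 0.085 ± 0.017 was called (adjusted p = 0.000549), while its clock-time amplitude of 0.025 ± 0.018 was not (adjusted p = 0.499). Under DRF Crot was not called rhythmic, so its shift of 10.6 ± 1.86 h has a wide 95% interval of 6.94 to 14.2 h, and was 10.7 h without the 2 libraries.

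Hsd17b4 and Decr2 moved less far, and Decr2 kept most of its timing. Decr2 stood at 16.3, 19.4, 20.2 and 23.0 TPM in NRF hearts at ZT8 (the first being the library that went against its label) and at 13.3, 14.6, 13.3 and 13.2 TPM at ZT20. In DRF hearts it stood at 17.4, 15.0, 12.8 and 16 TPM at ZT8 and at 13.0, 13.8, 14.1 and 13.7 TPM at ZT20. The regimens overlapped at ZT20, where the hearts of both were low. At ZT8 they overlapped through the library that went against its label, and without the 2 libraries the difference there was -0.43 (log2, adjusted p = 0.00348).

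The clock-time amplitude of Decr2, 0.18 ± 0.026 (adjusted p = 6.76e-07), was larger than its feeding-following amplitude of 0.073 ± 0.024 (adjusted p = 0.0453). That last call was lost in 36 of 76 alternatives, among them limma-voom (adjusted p = 0.0532), no filter on low values (0.0651) and the replicate block (0.0533). It was lost when any 1 of 24 libraries was left out (up to 0.0945, without DRF ZT8 replicate 3), and was kept without the 2 libraries (0.0180). Its peak moved by 2.55 ± 1.02 h, from ZT7.21 to ZT4.65 (95% interval 0.558 to 4.55 h), and by 2.63 h without the 2 libraries. Hsd17b4 peaked at ZT8.65 under NRF and ZT3.18 under DRF, a shift of 5.48 ± 1.24 h (95% interval 3.05 to 7.91 h; 5.57 h without the 2 libraries), with a feeding-following amplitude of 0.078 ± 0.018 and a clock-time amplitude of 0.090 ± 0.021. Shifts of 0 to 4 h are called phase locked in the study and shifts of 8 to 12 h phase inverted. By the fitted values, 3 of the 5 members that were rhythmic under both regimens were inverted (Acox3, Ehhadh and Cat), Decr2 was locked and Hsd17b4 lay between, although the interval of each crosses a class limit. Of all genes tested, 17.7% were rhythmic under both regimens, and of these 52.0% were locked and 17.7% inverted. Over these 2457 genes the median shift was 3.82 h.

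**Figure D3:**
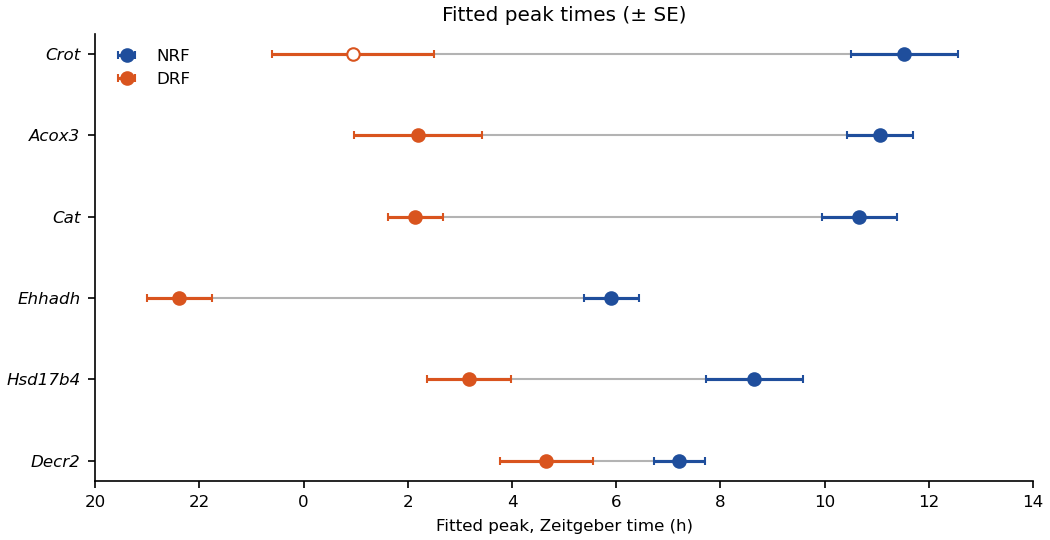
Fitted peak in zeitgeber time (horizontal, h) for the 6 genes rhythmic under NRF, with bars for SE, NRF in blue and DRF in orange; the open circle is Crot under DRF, which was not called rhythmic. Crot, Acox3, Cat and Ehhadh moved by 8.29 to 10.6 h and Decr2 by 2.55 h.

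Pex11a cycled under DRF only by these calls. Its DRF hearts stood at 15.8, 17.9, 14.5 and 17.5 TPM at ZT0, 16.7, 14.6, 15.1 and 17.6 TPM at ZT4 and 13.2, 13.3, 10.4 and 10.3 TPM at ZT16. Its NRF hearts stood at 11.8, 11.8, 12.6 and 11.9 TPM at ZT4 and at 14.5, 13.0, 13.4 and 14.1 TPM at ZT16. At ZT4 the regimens did not overlap, and Pex11a was higher under DRF by 0.38 ± 0.09 (log2, adjusted p = 0.0185, and 0.0180 without the 2 libraries). Its amplitude was 0.19 ± 0.034 under DRF (adjusted p = 0.00042) and 0.017 ± 0.037 under NRF (adjusted p = 0.920), and the difference in rhythm was called (adjusted p = 0.00513).

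Ech1 gave no difference between regimens past the threshold in the comparisons made here, apart from a pair of alternatives for its mean level. Its group means lay between 1036 and 1245 TPM, and its lowest and highest hearts at 926 and 1355 TPM. The DRF minus NRF difference of its mean level was 0.045 (log2, 95% interval -0.018 to 0.11), which bounds a change of the daily mean. After median-of-ratios rescaling this difference was 0.10 and passed the threshold (adjusted p = 0.0422), as it did with the adipocyte marker covariate (0.094, adjusted p = 0.0329).

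Over the 8 genes and 7 ZTs, 12 of 56 pairs differed between regimens, against 7.22% of all pairs of gene and ZT. They were Acox3, Ehhadh and Cat at ZT0 (11.3% of all genes called), Pex11a at ZT4 (0.447%), Decr2 at ZT8 (0.389%; difference -0.34, adjusted p = 0.0433), Acox3 and Cat at ZT12 (7.74%), Cat at ZT16 (6.94%), Ehhadh at ZT20 (14.8%) and Acox3, Ehhadh and Cat at ZT24 (8.89%). All 12 remained without the 2 libraries, with Ehhadh at ZT4 as a 13th. With no filter on low values, 7 of the 12 were called.

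Time was next counted from the start of feeding, so that hearts in the same nutritional hour were compared, DRF ZT16 with NRF ZT4 for example. Here 6 of 48 pairs differed, against 13.7% of all pairs of gene and feeding time, and 3 of them were of Ehhadh. When feeding began, Ehhadh was higher under DRF (0.66 ± 0.16, adjusted p = 0.00311; 13.1% of all genes called). At 4 h of fasting it was lower (-0.62 ± 0.18, adjusted p = 0.0116; 22.9%), and at 8 h of fasting it was higher (0.99 ± 0.18, adjusted p = 0.000135; 24.1%). By group means the rise of Ehhadh thus came later in the fast under DRF and went further. At 4 h of fasting, however, the NRF hearts were split, at 10.5, 8.91, 17.8 and 16.8 TPM. The second was within the DRF range of 7.62 to 8.92 TPM. The third was the library that lay slightly nearer to DRF ZT24 (r = 0.66) than to its own group (r = 0.63). Decr2 was lower under DRF at both fasting times (-0.38 ± 0.08, adjusted p = 0.000758, and -0.49 ± 0.08, adjusted p = 4.71e-05), and Hsd17b4 at the second (-0.21 ± 0.07, adjusted p = 0.0318). All 6 calls were kept without the 2 libraries. Cat, Acox3 and Crot were called at 0 of their 18 feeding times (6.47%, 5.56% and 9.83% of all genes were called at 4, 8 and 12 h from the start of feeding), where the largest difference was -0.21 ± 0.09 for Cat at 4 h of fasting (adjusted p = 0.0663), and 2 of the 18 had an unadjusted p under 0.05.

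**Figure D4:**
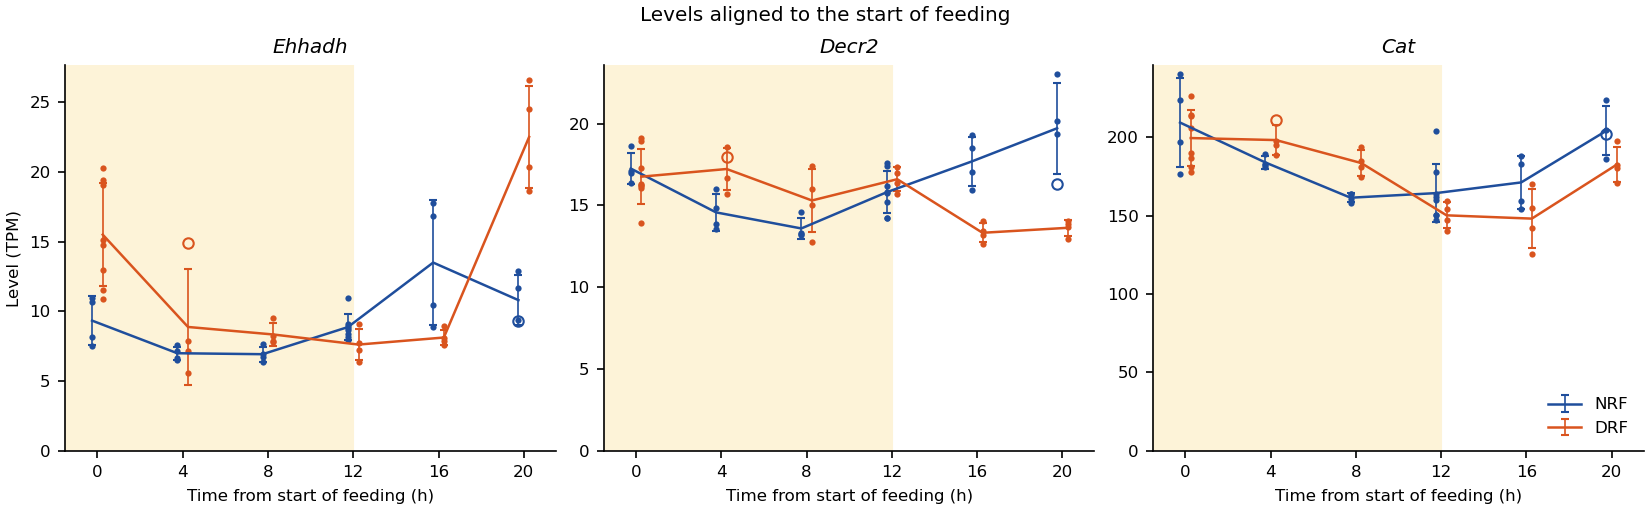
Level in TPM (vertical, from 0) of Ehhadh, Decr2 and Cat against hours from the start of feeding, with points for hearts, lines for group means, bars for SD, NRF in blue and DRF in orange. Yellow marks feeding, open circles the 2 libraries that went against their labels, and the start of feeding under DRF and its end under NRF pool ZT0 and ZT24 (n = 8). The lines of Cat cross, with DRF at 183 and NRF at 161 TPM at 8 h of feeding and at 148 and 171 TPM at 4 h of fasting, those of Decr2 part in the fast, and DRF Ehhadh is the higher at 20 h.

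Fasting times (4 and 8 h into the fast) were compared with feeding times within each regimen. Under NRF, Ehhadh (0.69 ± 0.13, adjusted p = 8.66e-05), Decr2 (0.38 ± 0.06, adjusted p = 3.7e-06) and Hsd17b4 (0.17 ± 0.05, adjusted p = 0.0152) were higher in fasting, 3 of 8, with 22.7% of all genes called (14.6% higher and 8.05% lower). All 3 calls held without the 2 libraries. Hsd17b4 lost its call when NRF ZT4 replicate 4 or NRF ZT8 replicate 4 was left out (adjusted p up to 0.0524). The median over the 8 genes was 0.097, against 0.024 over all genes.

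Under DRF only Ehhadh was higher in fasting (0.64 ± 0.13, adjusted p = 0.000208), and this rested on ZT20, since without that time the difference was -0.033 (adjusted p = 0.913). Decr2 (-0.25 ± 0.06, adjusted p = 0.0014), Cat (-0.22 ± 0.06, adjusted p = 0.00624), Pex11a (-0.17 ± 0.06, adjusted p = 0.0343) and Hsd17b4 (-0.14 ± 0.05, adjusted p = 0.035) were lower, so that 5 of 8 were called, against 26.6% of all genes. Of all genes 22.0% were called lower and 4.64% higher, and the median over all genes was -0.073. Without the 2 libraries, or without any 1 of DRF ZT4 replicate 1, DRF ZT16 replicate 3 or 4 and DRF ZT20 replicate 1 or 2, 3 of 8 were called, since Pex11a and Hsd17b4 no longer were. After median-of-ratios rescaling 2 were called, Ehhadh and Decr2, with Cat at -0.13 (adjusted p = 0.0747).

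The fasting effect itself differed between regimens for 3 of 8 genes (34.4% of all genes were called, 7.74% with a higher and 26.6% with a lower effect under DRF). These were Decr2 (-0.63 ± 0.08 for DRF minus NRF, adjusted p = 8.46e-08), Cat (-0.33 ± 0.09, adjusted p = 0.00216) and Hsd17b4 (-0.31 ± 0.07, adjusted p = 0.000828). All 3 held without the 2 libraries. The call for Cat was lost without ZT8 (-0.26, adjusted p = 0.0731) and without ZT16 (-0.27, adjusted p = 0.0589). Decr2 was higher at the light-phase than at the dark-phase times under both regimens. The same held for Hsd17b4 by its calls, of which that under DRF was lost in 15 of 76 alternatives and that under NRF in 7. For Ehhadh the effect differed by -0.042 ± 0.18 (adjusted p = 0.886), an interval of -0.40 to 0.32 that leaves room for sizeable differences, without the 2 libraries by 0.056 (adjusted p = 0.828), and without ZT20 by -0.71 (adjusted p = 0.0181).

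**Figure D5:**
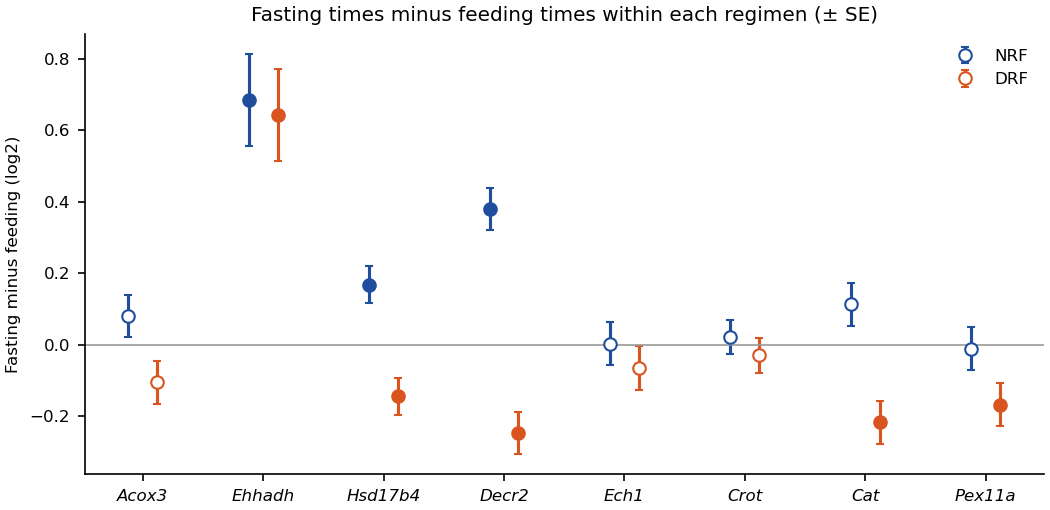
Log2 difference of fasting minus feeding times (vertical, ± SE) for each of the 8 genes, NRF in blue and DRF in orange, filled where the adjusted p is under 0.05 and open elsewhere. Ehhadh is above 0 in both regimens at 0.69 and 0.64, while the other genes except Pex11a are above 0 under NRF and below it under DRF, with both calls made for Hsd17b4 and Decr2.

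The members resembled each other to unlike degrees. Over the 14 group means, Acox3 correlated at r = 0.91 with Cat and 0.90 with Crot, and Hsd17b4 at 0.87 with both Cat and Decr2 and 0.82 with Acox3. Crot correlated at 0.81 with Cat. Ehhadh correlated with the other 7 at 0.11 to 0.37. These values are a description of group means that share the same libraries. Outside the 8 genes, those whose 14 group means were most like Ehhadh were Depdc7 (r = 0.95), Tmem131l (0.93), Ttc30a1 (0.93), Ucp3 (0.92), which encodes a mitochondrial uncoupling protein, and Zfp110 (0.92). The fitted peak of Ucp3 stood at ZT6.23 under NRF and ZT21.8 under DRF.

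Among 16 other tested enzymes of peroxisomal oxidation (of 23 in the list), 7 had a feeding-following component and 6 a clock-time component, against 27.7% and 41.5% of all genes. Mlycd, which breaks down malonyl-CoA, had the largest feeding-following amplitude (0.26 ± 0.029), with a clock-time amplitude of 0.25 ± 0.029 and a peak that moved from ZT5.61 to ZT23.5. Nudt7, which degrades coenzyme A in peroxisomes, had amplitudes of 0.24 ± 0.026 and 0.13 ± 0.029, with a shift of 8.52 h. Aldh3a2, a fatty aldehyde dehydrogenase, had a feeding-following amplitude of 0.10 ± 0.020. Under NRF 3 of the 16 rose in fasting and 0 fell, under DRF 0 rose and 4 fell, with medians of 0.017 and -0.085, against 14.6% rising under NRF and 22.0% falling under DRF over all genes.

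Of 11 tested transporters and acyl-CoA binding or activating proteins of the peroxisome (of 12), 5 had a feeding-following component and 5 a clock-time component, against 27.7% and 41.5% of all genes. The largest feeding-following amplitudes were those of Acsl1, which activates long chains (0.16 ± 0.025), Pxmp4 (0.14 ± 0.021), Abcd3, an importer of branched and dicarboxylic chains (0.13 ± 0.021) and Acbd4 (0.10 ± 0.024). Abcd2, an importer of very long chains, had the largest clock-time amplitude (0.17 ± 0.027). Its feeding-following component was also called (0.094 ± 0.027), although its fitted peak was at ZT12.4 under both regimens. Under DRF it was not called rhythmic (limma adjusted p = 0.283). The median fasting difference of the 11 was 0.016 under NRF, where 3 rose (14.6% of all genes did). Under DRF it was -0.099, where 1 fell (22.0% of all genes did).

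Mitochondrial beta-oxidation was measured alongside. Of 14 mitochondrial beta-oxidation enzymes, 6 had a feeding-following component (median amplitude 0.055), led by Etfdh at 0.093 ± 0.021, against 27.7% of all genes. By limma 0 had a clock-time component, with 0 also at an unadjusted p under 0.05, against 41.5% of all genes called. None of the 14 passed the test for fasting against feeding in either regimen, against 22.7% of all genes under NRF and 26.6% under DRF, and 0 and 3 had an unadjusted p under 0.05. In mean level 7 were higher and 1 lower under DRF, where 2.88% of all genes were higher and 26.1% lower. All 18 core clock genes had a clock-time component (41.5% of all genes did) that was the larger of both, with a median of 0.85, and 17 had a feeding-following component (27.7%), with a median of 0.34 and the largest value for Dbp (0.68 ± 0.11).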

How the data were processed

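PolyA RNA of mouse heart was sequenced in 56 libraries, 4 for each of 7 ZTs under DRF and NRF. Per the submitters' processing notes, reads were aligned with HISAT2 2.0.5 to mm10 and counted with featureCounts 1.5.0-p3. The authors deposited values named TPM, but these deposited values follow a library constant times log2(1 + scaled reads) divided by exon length, so they are of no usual unit. Whole reads were therefore recovered with GENCODE M21 exon lengths (100% of values under 30000 reads within 0.1 of a whole number), and TPM were recomputed. Another exon length had to be found for 837 genes to make their reads whole, Decr2 among them (2288 in place of 2653 bases). In a self-test on drawn reads the recovery returned 100% of the reads. These were turned into values by the same formula and library constants, so the self-test does not test the formula.

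The 13869 genes that averaged 1 TPM or more were tested as log2(TPM + 1) with limma 3.58.1 in R 4.3.3 (trend = TRUE, Benjamini-Hochberg adjusted p under 0.05), with a harmonic of 24 h in place of MetaCycle, the rhythm tool of the study, or with 14 group means. Both regimens' harmonic coefficients were subtracted or added and divided by 2 to give the feeding-following and clock-time components, whose log2 amplitude is the distance from the mean to the peak. Adjustment was made within each contrast over all genes. Intervals are 1.96 SE to each side. No molecular identifiers were used, so reads are not independent molecules. On simulated rhythms over the same 13869 genes, the feeding-following test recovered 90 of 100 genes at a log2 amplitude of 0.3. At 0.6 it recovered 98 of 100. These amplitudes are above those of most members, and 19 of the 207 calls were of unchanged genes. The simulation gave every gene the same spread beyond counting error. The median SD of the members ran from 6.66% (Crot) to 16% (Ehhadh), so these rates are not those of single members. Replicate numbers were not taken to pair the samples (mean correlation of deviations 0.017 within and -0.006 between numbers).

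The members and lists were chosen with earlier results of these data known. Named list genes were, in each peroxisomal list, up to 4 with the largest feeding-following and up to 2 with the largest clock-time amplitude among those called, 1 gene each from the mitochondrial and clock lists, and 5 genes most like Ehhadh, and 2 of the genes so chosen are not reported here. Alternatives were another pseudocount (0.1), no filter on low values, median-of-ratios rescaling, limma-voom on recovered reads, the deposited values as they stand, an adipocyte marker covariate, a replicate block, and leaving out replicates, single libraries or ZTs. Leaving out the 2 libraries that went against their labels, and the covariate without Cox7a1, which heart muscle expresses, were added after seeing the data.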

Additional observations from a re-analysis of the deposited data

Results flagged for a closer look

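In 8 of the 112 groups of 4 hearts (8 genes in 14 groups), 1 heart stood far from the other 3, by Dixon's test of the gap against the group's range. Chance alone would mark about 1 in 20 groups, or 5.6 of the 112. Acox3 at DRF ZT20 was 4.02 TPM in replicate 2, below the others at 5.62 to 5.78 TPM. Ehhadh at NRF ZT24 was 10.9 TPM in replicate 2, above the others at 7.95 to 8.39 TPM, and in the same library Ech1 was 1349 TPM, above the others at 1008 to 1063 TPM. Ech1 at NRF ZT8 was 1094 TPM in replicate 3, below the others at 1238 to 1259 TPM. Pex11a at NRF ZT4 was 12.6 TPM in replicate 3, above 11.8 to 11.9 TPM, and Hsd17b4 at DRF ZT12 was 65.3 TPM in replicate 4, above 57.2 to 57.9 TPM. Decr2 was 18.9 TPM in DRF ZT0 replicate 3, above 16.1 to 16.3 TPM, and 14.6 TPM in NRF ZT20 replicate 2, above 13.2 to 13.3 TPM.

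The rhythm differed between DRF and NRF by a limma test of the difference itself for 7 genes, with feeding-following log2 amplitudes of 0.46 for Ehhadh, 0.19 for Cat, 0.14 for Acox3, 0.10 for Pex11a, 0.085 for Crot, 0.078 for Hsd17b4 and 0.073 for Decr2. The fasting effect differed, again by a test of the difference, for Decr2 (-0.63 for DRF minus NRF, log2), Cat (-0.33) and Hsd17b4 (-0.31).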

How the results depend on the processing

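The counts of members rhythmic under NRF, with a feeding-following component, higher or lower in fasting under NRF, with a fasting effect that differed between regimens, and of feeding-time pairs stayed within 1.5 times their value under each alternative run. Members rhythmic under DRF (7) numbered 4 on the deposited values as they stand and 4 without ZT16, and 4 to 8 with replicates or libraries left out. Members with a clock-time component (6) numbered 5 after median-of-ratios rescaling and 4 on the deposited values. They numbered 4 without ZT8 or ZT16 and 5 without ZT0, ZT12 or ZT24. With replicates or libraries left out they numbered 3 to 6, the lowest without replicate 4. The clock-time call was lost in 11 of 76 alternatives for Acox3, in 5 for Cat and in 4 for Pex11a. That for Cat was lost after the rescaling (limma adjusted p = 0.0727). Members that changed with fasting under DRF (5) numbered 2 after median-of-ratios rescaling, 2 on the deposited values, 1 without ZT4, 2 without ZT16, 3 without the 2 libraries that went against their labels, and 2 to 5 with replicates or libraries left out. With that rescaling, 51.4% of all genes called in this comparison were lower, against 82.6% before it. Members with a different mean level (1) numbered 2 after median-of-ratios rescaling, 2 with the adipocyte marker covariate, 0 without ZT20 and 0 without ZT24. Pairs of member and ZT (12) numbered 7 with no filter on low values and 5 to 14 with replicates or libraries left out, the lowest without replicate 2 or 3. The fasting difference of Ehhadh under DRF turned to -0.033 without ZT20. Pex11a lost its feeding-following call without replicate 1 and without ZT16 (adjusted p up to 0.102), and its fasting call under DRF was lost in 19 of 76 alternatives. Over 72 values of single members and 76 alternatives, 159 calls were lost with their direction kept, 1 was lost with its direction reversed, 10 were gained, and 97 values that were not called changed sign. The cause of these changes was not tested.

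The labels do not say that a replicate number marks a shared source, and deviations of same-numbered libraries correlated from -0.397 to 0.571, so the numbers were not taken to pair the samples; 21 of 56 libraries correlated best with their own number, where 14 would by chance. With the replicate block, 6 members had a feeding-following component, as Decr2 no longer passed (adjusted p = 0.0533), and 11 pairs of member and ZT differed; no other count of members changed. Times left out removed the contrasts that need them, so feeding-time pairs have no value without a ZT. Depth limits Ehhadh and Decr2 most, with as few as 293 and 437 reads per library.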

Other observations

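Genes that build peroxisomes were also measured. Of 15 peroxins other than Pex11a, 5 had a feeding-following component and 7 a clock-time component, against 27.7% and 41.5% of all genes. Feeding-following amplitudes were 0.16 ± 0.028 for Pex11g, a paralogue of Pex11a listed at 1.38 TPM, 0.15 ± 0.023 for Pex16, whose peak moved from ZT10.3 to ZT0.219, and 0.077 ± 0.018 for Pex2. Pex11g and Pex14 had the largest clock-time amplitudes, at 0.12 ± 0.031 and 0.11 ± 0.023.

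Of 9 tested genes for redox and ether lipid enzymes of the peroxisome (of 10), 4 had a feeding-following component and 2 a clock-time component, against the same shares. Idh1, a source of NADPH, had amplitudes of 0.15 ± 0.025 and 0.12 ± 0.026. Under NRF it peaked at ZT13.8 and was lower in fasting by -0.20 ± 0.06 (log2, adjusted p = 0.0112), the opposite sign to Ehhadh, Decr2 and Hsd17b4. Ephx2, an epoxide hydrolase, moved from ZT10.7 to ZT0.781 (feeding-following amplitude 0.13 ± 0.023) and was higher under DRF in mean level by 0.15 (adjusted p = 0.00106). Far1, which makes fatty alcohols for ether lipids, and Prdx1, a peroxiredoxin, had feeding-following amplitudes of 0.091 ± 0.022 and 0.060 ± 0.017, and Agps, which makes ether bonds, a clock-time amplitude of 0.046 ± 0.016.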
